A study of Mus musculus with 4 samples.

Results

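Small RNA of miRNA size was sequenced once from each of 4 sources, the cells and the extracellular vesicles (EVs) of 4T1 and of 4TO7. Both are mouse breast cancer lines derived from a common tumour, and both were grown in DMEM with EV-free serum. 4T1 is known for growth at distant sites and 4TO7 for poor growth there. The labels name no drug or genetic change in any library. EVs were purified by differential centrifugation that ended in ultracentrifugation, and how many cultures went into a library is not given in the sources used here. All values are shares of the miRNA reads of a library, so the number of vesicles and the RNA per vesicle or per cell cannot be told apart. The quantity described here is the difference between the lines in the vesicle-to-cell ratio of a miRNA, log2 (4T1 EV / 4T1 cells) minus log2 (4TO7 EV / 4TO7 cells). Only mature miRNAs with a minimum of 50 sense reads, each at least 18 nt long, in 1 or both libraries of each line were compared, which left 129 of the 645 mature miRNAs with any such read. A negative value means a lower vesicle-to-cell ratio in 4T1 than in 4TO7, whatever the sign of the ratio itself.

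MiRNAs are short RNAs that guide Argonaute proteins to partly complementary sites in mRNAs, chiefly through the seed, bases 2 to 8. A hairpin precursor is cut into a duplex, 1 arm of which (5p or 3p) is usually kept in Argonaute while the other, the passenger arm, is mostly degraded. EVs carry a part of the small RNA of the cell of origin, and the proportions of miRNAs in EVs and cells often differ. A miRNA can reach the same level in the vesicles of both lines while its level in the cells differs, or the reverse, so the values below are given for all 4 libraries.

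The miRNA libraries were unequal in depth, with 57962 sense miRNA alignments of that length in the vesicles of 4T1, 51697 in those of 4TO7, and 603186 and 177647 in the cells of the same lines. The 129 miRNAs held between 97.1% and 98.3% of these. Reads of 18 to 20 nt made up 53.3% of them in 4T1 EV and 29.6% in 4TO7 EV, against 9.86% and 5.55% in the cell libraries of these lines. The miR-200 family, which marks epithelial cells, could not be compared, because 4TO7 had almost none. The epithelial list (the miR-200 family and miR-205-5p) summed to 384 reads in vesicles and 3922 in cells of 4T1, against 5 and 42 in those of 4TO7, and 41 of those 42 were miR-205-5p. Markers of blood cells summed to 18 and 44 reads in the vesicles of 4T1 and 4TO7, and to 7 and 3 in their cells. In all, 79 miRNAs reached 50 reads in 4T1 alone and 2 in 4TO7 alone.

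The miRNAs whose sequences carry the comparison are shown here as RefSeq gives them for GRCm38.p6, 5′ to 3′, with the seed in capitals. The first pair shows how alike the miRNAs with the most negative values are, the next 3 share another seed, and miR-423 gave both of its arms. The miR-99b, let-7e and miR-125a genes are neighbours on chromosome 17 and their products went different ways, and the arms of miR-27a and miR-125b-1 are set beside each other for the same reason.
miR-10a-5p: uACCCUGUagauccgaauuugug
miR-10b-5p: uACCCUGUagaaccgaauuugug
miR-181a-5p: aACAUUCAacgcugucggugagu
miR-181b-5p: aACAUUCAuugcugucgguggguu
miR-181d-5p: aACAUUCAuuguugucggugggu
miR-423-5p: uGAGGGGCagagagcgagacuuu
miR-423-3p: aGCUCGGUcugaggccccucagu
miR-99b-5p: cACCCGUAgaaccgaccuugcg
miR-99b-3p: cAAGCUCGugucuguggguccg
let-7e-5p: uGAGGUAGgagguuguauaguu
miR-125a-5p: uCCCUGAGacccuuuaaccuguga
miR-125b-5p: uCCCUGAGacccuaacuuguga
miR-125b-1-3p: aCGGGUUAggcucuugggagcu
miR-27a-3p: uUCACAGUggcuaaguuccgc
miR-27a-5p: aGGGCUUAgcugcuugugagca
miR-24-3p: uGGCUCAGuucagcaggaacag
miR-21a-5p: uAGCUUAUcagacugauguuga

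Across the 129 miRNAs the line difference had a median of -0.02 on the log2 scale, with quartiles of -0.96 and 0.82, and it ran from -5.73 to 3.20. It was below 0 for 66 miRNAs and above 0 for 63. The median standard error from counting was 0.34, against a standard deviation of 1.50 between miRNAs. A miRNA was called when the 95% interval of its difference, from summed Poisson variances, lay wholly past 2-fold. This held for 23 miRNAs, or 17.8%, of which 16 (12.4%) were lower and 7 (5.43%) higher in 4T1. With 1 library per group there is no replicate error, so these calls compare 4 libraries and not the lines as such, no p-value can be given, and every interval covers counting error only. Of the 23, 9 kept their call in each alternative setting in which they were compared by name, between 17 and 21 settings per miRNA. All 9 were lower in 4T1, and several of these settings could not undo a lower call. A changed minimum or equal counts taken once left the values as they were, and a 1-fold limit only loosened calls. Counting per genome-aligned read or per read of any kind moved every difference down. Of these 9, 6 were also called in reads of 21 nt or more, which are a part of the same reads. All 6 were lower in 4T1: miR-423-3p, miR-99b-3p, miR-27a-5p, miR-125b-1-3p and the miR-10 pair. The other 3, the miR-181 members, were not called in those reads. Both the miR-10 pair and the miR-181 members had under 50 such reads in each 4TO7 library, so that setting left them out. The balance of the calls depended on the setting. In reads of 21 nt or more, 10 miRNAs were called higher and 6 lower in 4T1 of 113 that reached the minimum. Per genome-aligned read every difference moved by -1.90, and no miRNA was then called higher in 4T1. The logs give 130945 reads aligned to miRNAs in 4T1 EV, 1550663 in 4T1 cells, 54977 in 4TO7 EV and 590485 in 4TO7 cells. The alignments of 18 nt or more were far fewer than that in each library but 4TO7 EV, which had 51697. How much of the shift of -1.90 came from the length limit and how much from the denominator was not tested.

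Within each line, vesicles and cells differed more often than the lines did. In 4T1, 17 of the 129 (13.2%) were called higher in vesicles than in cells and 47 (36.4%) lower, and in 4TO7 22 (17.1%) and 49 (38.0%), with median log2 EV/cell ratios of -1.05 and -0.96. Between the lines, 15 (11.6%) were called higher and 19 (14.7%) lower in 4T1 vesicles, and 12 (9.3%) higher and 9 (6.98%) lower in 4T1 cells. These counts use exact intervals and the same 2-fold limit.

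**Figure D1:**
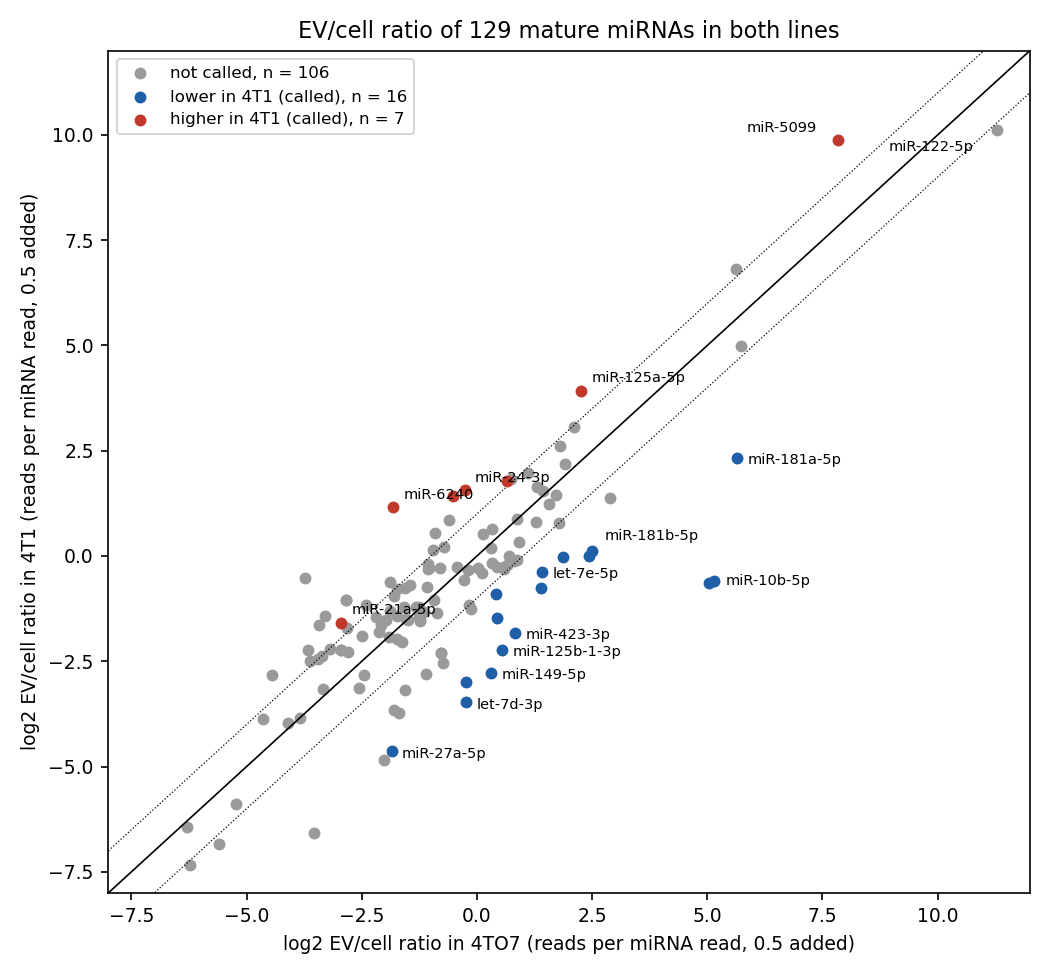
Log2 EV/cell ratio of the 129 miRNAs in 4TO7 (x axis) and 4T1 (y axis), per miRNA read with 0.5 reads added; the solid line marks equal ratios and the dotted lines a 2-fold difference. The 16 miRNAs called lower in 4T1 lie below the diagonal, with the miR-10 pair farthest from it, and the 7 called higher lie above.

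The largest line difference belonged to the miR-10 pair, encoded in Hox gene clusters, miR-10a on chromosome 11 (96317186 to 96317208 for the mature 5p arm) and miR-10b on chromosome 2 (74726074 to 74726096). MiR-10b-5p had 207 reads in 4T1 EV, 3260 in 4T1 cells, 66 in 4TO7 EV and 6 in 4TO7 cells. It was thus plentiful in 4T1 cells and nearly missing in 4TO7 cells, while both vesicle libraries held it. The log2 EV/cell ratio was -0.59 in 4T1 (exact 95% interval -0.81 to -0.39) and 5.14 in 4TO7 (4.04 to 6.74), a line difference of -5.73 (-6.91 to -4.55). MiR-10a-5p gave -5.70 (-6.88 to -4.51), but its sequence differs from miR-10b-5p at 1 of 23 bases and a read can be listed under both, so this is not a second observation. Between the lines, miR-10b-5p was higher in 4T1 by 7.21 in cells and by 1.48 in EVs on the log2 scale. The 4TO7 EV reads were short, 18 nt being their most common length, and 33 of the 66 were 21 nt or longer. In reads of 21 nt or more the difference was -4.79 (-6.03 to -3.56). The other members of the list, miR-196a-5p and miR-196b-5p, had values of -0.23 and -0.42 and were not called.

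The 3 miR-181 members, which are abundant in lymphoid and neural tissue, were all lower in 4T1. MiR-181a-5p had 143 reads in 4T1 EV, 296 in 4T1 cells, 342 in 4TO7 EV and 23 in 4TO7 cells. Its ratio was above 0 in both lines, 2.33 in 4T1 (2.03 to 2.62) and 5.65 in 4TO7 (5.07 to 6.35), so that vesicles of both lines held more of it than the cells did. The line difference was -3.31 (-3.98 to -2.65), with a higher level in 4T1 in cells (1.89) and a lower one in EVs (-1.42). MiR-181b-5p, with 75, 719, 73 and 44 reads in the same order, had a difference of -2.38 (-3.01 to -1.74). MiR-181d-5p, at -2.43, differs from it at 1 of 23 bases compared and can share its reads. All 3 had short vesicle reads: 19 nt was the most common length in both EV libraries and 23 nt in both cell libraries. In reads of 21 nt or more miR-181a-5p had 8 and 9 reads in the vesicles of 4T1 and 4TO7 and a difference of -1.71 (-3.18 to -0.24), and miR-181b-5p stood at -0.34 (-1.45 to 0.77). Neither was called in that window. There miR-181a-5p made up a smaller share in 4T1 EV (8 of 27081 reads) than in 4T1 cells (287 of 543701). In 4TO7 its share stayed larger in vesicles (9 of 36417) than in cells (22 of 167780).

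In these 5 miRNAs, and in miR-5099, only the vesicle library of 4TO7 reached 50 reads, so they passed the minimum in that line only through vesicles. This was so for 10 of the 129 in 4TO7 and for 2 in 4T1. Through cells alone, 59 passed in 4TO7 and 60 in 4T1.

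In other miRNAs the lines differed chiefly in vesicles. In 10 of the 16 the line ratio was farther from 0 in EVs than in cells, and in 6 it was farther in cells. MiR-423-3p, from a precursor on chromosome 11 (77078086 to 77078108 for this arm), had 29 reads in 4T1 EV, 1085 in 4T1 cells, 149 in 4TO7 EV and 288 in 4TO7 cells. The cell libraries held it at 1799 and 1621 RPM (reads per 1000000 miRNA reads), nearly the same level, whereas the EV libraries held it at 500.3 in 4T1 and 2882 in 4TO7. The line difference was -2.65 (-3.25 to -2.05). The other arm, miR-423-5p, with 89, 941, 213 and 199 reads, gave -1.89 (-2.31 to -1.48). Both arms of miR-423 were thus lower in 4T1, and the EV/cell ratio of the 5p arm was -0.02 in 4T1 and 1.88 in 4TO7.

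Let-7e-5p was the most abundant miRNA called lower. It had 598 reads in 4T1 EV, 8132 in 4T1 cells, 2166 in 4TO7 EV and 2800 in 4TO7 cells. Its level was alike in cells, at 13482 and 15762 RPM, and apart by -2.02 on the log2 scale in EVs, at 10317 RPM in 4T1 and 41898 RPM in 4TO7. The difference was -1.80 (-1.94 to -1.65) and kept that size in reads of 21 nt or more, at -1.80, but was -0.38 once reads of 16 and 17 nt were added. The rest of the let-7 and miR-98 list, whose members restrain growth-promoting mRNAs, was not called. Of its 11 members 9 were below 0, the median was -0.34 and the highest was miR-98-5p at 0.27. The sequences of let-7e-5p and let-7a-5p differ at 1 of 22 bases, and let-7a-5p stood at -0.59 (-0.66 to -0.53). Let-7d-5p, at -0.99, was called lower only in reads of 21 nt or more, at -2.18 (-2.66 to -1.70).

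MiR-26a-5p, a miRNA associated with differentiation, had 130 reads in 4T1 EV, 2551 in 4T1 cells, 594 in 4TO7 EV and 1543 in 4TO7 cells. It was below the cell level in 4T1 vesicles (-0.91) and above it in 4TO7 vesicles (0.40), and the difference was -1.31 (-1.60 to -1.03), close to the limit of a call. In reads of 21 nt or more the difference was -0.75 (-1.05 to -0.46) and was not called. Of such reads it made up 126 of 27081 in 4T1 EV and 2174 of 543701 in 4T1 cells, a slightly larger share in vesicles. MiR-26b-5p, identical at 19 of 21 bases compared, had 18, 478, 14 and 183 reads and a value of 0.57 (-0.45 to 1.59). MiR-92a-3p, of the miR-17-92 cluster, had 29, 520, 49 and 64 reads and a difference of -2.16 (-2.92 to -1.40). In reads of 21 nt or more it was -0.87 (-2.10 to 0.35). MiR-149-5p (4, 322, 41 and 115 reads) and miR-361-3p (20, 590, 56 and 143 reads) were also lower, at -3.09 (-4.52 to -1.65) and -1.90 (-2.68 to -1.13).

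**Figure D2:**
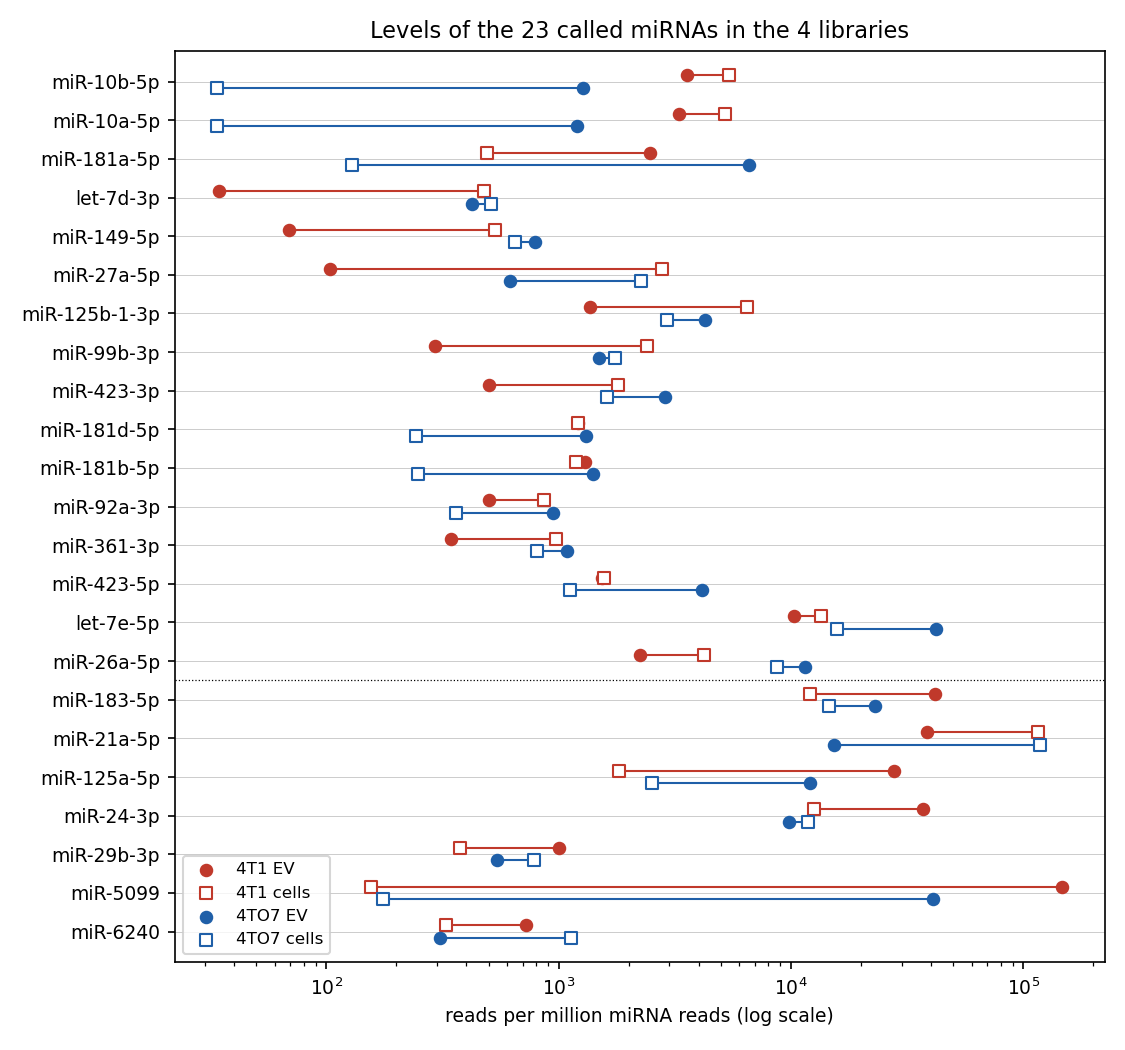
Level of the 23 called miRNAs in each library, in RPM of miRNA reads on a log axis; filled circles are EVs, open squares cells, red 4T1 and blue 4TO7, and a line joins cells and EVs of a line (1 library each). For miR-10a-5p and miR-10b-5p the 2 cell libraries are far apart, whereas for miR-423-3p, miR-24-3p and miR-21a-5p the cell libraries nearly coincide and the EV libraries differ.

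The 7 miRNAs with a higher EV/cell ratio in 4T1 were miR-5099, miR-6240, miR-21a-5p, miR-24-3p, miR-29b-3p, miR-125a-5p and miR-183-5p. MiR-24-3p, of the miR-23/27/24 clusters, had 2140 reads in 4T1 EV, 7561 in 4T1 cells, 505 in 4TO7 EV and 2093 in 4TO7 cells. Its cell levels were 12535 and 11782 RPM and its EV levels 36921 and 9768 RPM, so the lines differed in vesicles and hardly in cells. The line difference was 1.83 (1.67 to 1.98), and it was called both in reads of 18 to 20 nt (1.89) and in reads of 21 nt or more (2.05). MiR-125a-5p had 1607, 1102, 622 and 446 reads. It was above the cell level in the vesicles of both lines, by 3.92 in 4T1 and 2.26 in 4TO7, with a difference of 1.66 (1.46 to 1.87), or 2.19 in reads of 21 nt or more. MiR-125b-5p, which has the same seed, stood at 0.34 (0.26 to 0.43).

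MiR-21a-5p, a miRNA raised in many tumours, was the most abundant of the 129. It had 2235 reads in 4T1 EV, 69634 in 4T1 cells, 794 in 4TO7 EV and 21024 in 4TO7 cells. The cell libraries held it at 115444 and 118347 RPM, and the vesicles at 38560 RPM in 4T1 and 15359 RPM in 4TO7. It was below the cell level in both, by more in 4TO7, and the difference was 1.36 (1.24 to 1.48), or 2.07 in reads of 21 nt or more. Per genome-aligned read it stood at -0.54, a shift of -1.90 that every miRNA shares. The authors labelled a genome cluster mir-21 (mm9, chromosome 11, 86397618 to 86397668), the single cluster with a miRNA label that was listed in all 4 libraries. This cluster held 3382 alignments in 4T1 EV, 600815 in 4T1 cells, 5023 in 4TO7 EV and 174386 in 4TO7 cells. Its line difference was -2.66 per genome-aligned read. The cluster held 8.63 and 8.29 alignments per mature read in 4T1 and 4TO7 cells, 6.33 in 4TO7 EV and 1.51 in 4T1 EV, and it covered 50 nt in cells and 25 nt in EVs. Reads that run past the annotated 3′ end cannot align to the mature sequence over their whole length and are counted in the cluster only. Their part in the result was not tested.

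MiR-183-5p, of a cluster expressed in sensory cells and epithelial tumours, had 2406, 7304, 1185 and 2590 reads and a difference of 1.12 (1.01 to 1.24), at the limit of a call. Its neighbours miR-182-5p and miR-96-5p stood at 0.93 (0.81 to 1.04) and 0.17 (-1.04 to 1.38). MiR-29b-3p, which targets collagen mRNAs, had 58, 226, 28 and 139 reads and a difference of 1.94 (1.22 to 2.65). All 3 miR-29 members were above 0, with miR-29a-3p at 0.86 (0.61 to 1.11) and miR-29c-3p at 0.95 (0.71 to 1.20), and those 2 were called in reads of 21 nt or more, at 1.37 and 1.42. MiR-5099 had 8545, 94, 2112 and 31 reads, a difference of 2.03 (1.44 to 2.62), and no read of 21 nt or more in any library. It is on a list of entries that rested on short reads in an earlier analysis, so its identity as a miRNA is doubtful. No RefSeq sequence was found for it, so whether its annotated length allows longer reads is not given here. It held 8545 of the 57962 reads to which 4T1 EV was scaled. Its level in 4T1 EV was 147424 RPM, against 40853 RPM in 4TO7 EV. MiR-6240 had 42, 197, 16 and 200 reads and a difference of 2.99 (2.12 to 3.85). Its reads most often began at base 3 of the annotated sequence, 20 nt long, in all 4 libraries.

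Of the abundant miRNAs, most had the same ratio in both lines to within 2-fold. The whole interval lay within 2-fold for 33 of the 129. Besides let-7a-5p these included let-7i-5p at -0.12 (-0.23 to -0.01), miR-27a-3p at 0.10 (-0.06 to 0.25), miR-103-3p at -0.02 (-0.24 to 0.20), miR-100-5p at -0.29 (-0.42 to -0.16) and miR-9-5p at -0.36 (-0.74 to 0.02). MiR-122-5p, a liver miRNA also found in serum, had 160 and 1092 reads in the vesicles of 4T1 and 4TO7 but 1 read in the cells of each line. Its difference of -1.17 has an interval of -4.44 to 2.11 and cannot be read either way. In 4 miRNAs (miR-18a-5p, miR-30b-5p, miR-31-3p and miR-374b-5p) 4T1 EV had 0 reads, as had 4TO7 EV for the last, which limits each to 51.8 RPM and the last also to 58.0 RPM in 4TO7 EV. With these at that floor of 3 reads the median over the 129 was 0.02. At the minimum itself, miR-466f-3p (52 reads in 4T1 cells) and miR-339-5p (53 in 4TO7 cells) lay just inside with values of 3.20 and -1.87, and miR-21a-3p and miR-15b-3p, with 49 reads each in 4TO7 cells, lay just outside with 0.16 and -0.46.

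Counts of calls by list stand beside 12.4% lower and 5.43% higher over all 129. Of 22 measured miRNAs of miR-17-92 and its paralogs, polycistrons linked to proliferation, 11 passed the minimum and had a median of 0.60 with 9 above 0, 1 called lower (miR-92a-3p) and none higher. The 8 members of the Sfmbt2 cluster, a large group of miRNAs in an intron of that gene, had a median of 1.39 with 7 above 0, and none was called. Of these 8, 2 pairs had equal counts in every library, and with each pair taken once 5 of 6 were above 0. In the miR-30 family the median over 8 members was 0.08, 4 were above 0 and none was called. The 7 members of the miR-322 to miR-450 group on chromosome X had a median of -0.02 and none called. The 4 members of the miR-15, miR-16, miR-103 and miR-107 list had a median of 0.58, and miR-15b-5p, the highest, stood at 1.25 (0.51 to 1.99). The median over all 129 was -0.02. No member of the miR-200, miR-130, miR-146 and miR-155, miR-210 and miR-34 or muscle lists reached the minimum in both lines.

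MiRNAs that share a seed had mostly similar values, as far as they could be told apart. RefSeq sequences were found for 109 of the 129, with 72 seeds, 19 of which were shared by 2 or more miRNAs. The spread between the lowest and the highest member of a seed group had a median of 0.66 and was under 1 in 11 of the 19 groups. Part of this is built in, since near-identical miRNAs can be credited with the same reads. The 5 members with the seed AAAGUGC (miR-17-5p and its relatives) lay between 0.33 and 1.00. The seed AUUGCAC was the widest, from miR-92a-3p at -2.16 over miR-25-3p at 0.35 to miR-32-5p at 1.62 (-1.06 to 4.31).

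MiRNAs encoded side by side, which are usually cut from a common transcript, could differ widely. The 51 miRNAs that lay within 10 kb of another one on the same strand formed 18 groups. The spread within a group had a median of 1.18 and was 2 or more in 6 of them. Some groups hold both arms of a hairpin, as for miR-27a, miR-99b and let-7d, so their spread includes differences between arms. A miRNA with several genes, such as miR-92a-3p, is in more than 1 group. The miR-322 to miR-450 group, with a spread of 3.61, had no member called and few vesicle reads for several members. On chromosome 17 (17830194 to 17830840) miR-99b-3p stood at -2.76 (-3.53 to -1.99), let-7e-5p at -1.80, miR-99b-5p at -0.30 (-0.42 to -0.18) and miR-125a-5p at 1.66. Members of this group were called both lower and higher. The same held on chromosome 8 (84208563 to 84208896), where the only member called lower was miR-27a-5p, the arm of miR-27a with fewer reads. It stood at -2.79, miR-23a-3p at -0.19, miR-27a-3p at 0.10, miR-24-2-5p at 1.09 (0.62 to 1.56) and miR-24-3p at 1.83. MiR-24-3p is also encoded on chromosome 13. On chromosome 14 (115043684 to 115044496) the miR-17-92 members ran from miR-92a-3p at -2.16 to miR-19a-3p at 1.43 (0.30 to 2.56), besides miR-18a-5p with 0 reads in 4T1 EV. The miR-106b, miR-93 and miR-25 group on chromosome 5 was close together, between 0.35 and 1.00.

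**Figure D3:**
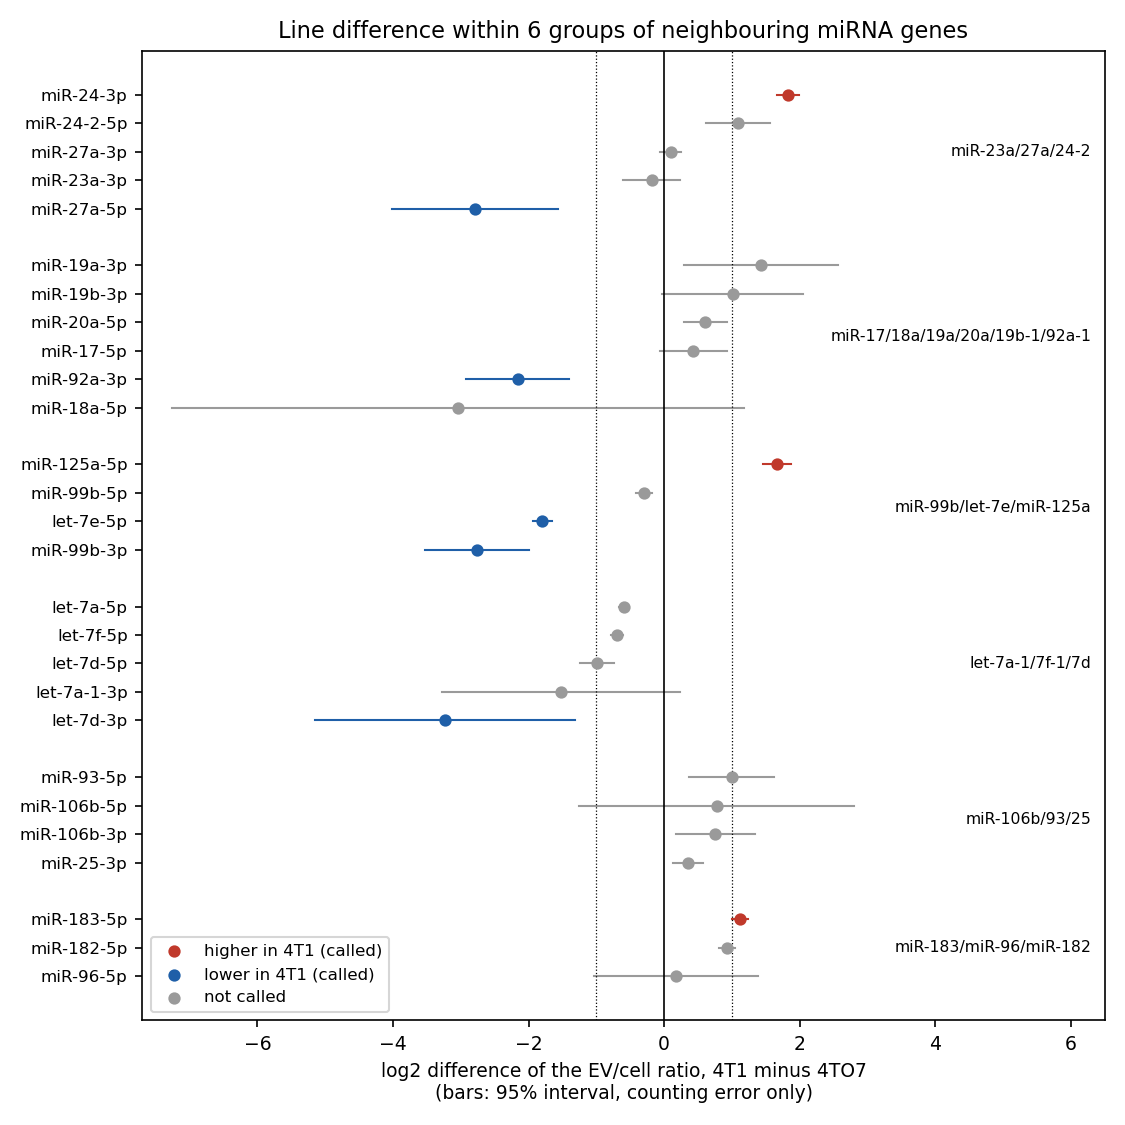
Line difference (log2, x axis) of the members of 6 groups of neighbouring miRNA genes, with 95% intervals for counting error; colours mark calls and dotted lines 2-fold. The groups of miR-27a and of let-7e each hold members on both sides, whereas the miR-106b group lies between 0.35 and 1.00. For miR-18a-5p, with 0 reads in 4T1 EV, the point depends on the 0.5 reads added.

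Both arms passed the minimum for 15 precursors, and in 12 of them the arm with fewer reads over the 4 libraries had the lower value. Let-7a-1-3p and let-7c-2-3p have the same sequence and the same counts, and with them taken once the arm with fewer reads was lower in 11 of 14, by a median of -1.43. MiR-125b-1-3p showed it with the most reads: it had 79 in 4T1 EV, 3900 in 4T1 cells, 221 in 4TO7 EV and 520 in 4TO7 cells, and a line difference of -2.79 (-3.18 to -2.39), against 0.34 for miR-125b-5p. Its EV/cell ratio was -2.24 in 4T1 and 0.55 in 4TO7. MiR-27a-5p (6, 1686, 32 and 403 reads) stood at -2.79 (-4.01 to -1.56) beside miR-27a-3p at 0.10. MiR-99b-3p (17, 1446, 77 and 312 reads) and let-7d-3p (2, 289, 22 and 91 reads) were called lower too, the latter at -3.23 (-5.15 to -1.32). Of the 14 distinct arms with fewer reads 5 (35.7%, against 12.4% of all 129) were called lower and none higher, with a median of -1.71. The 5 include miR-423-5p, which had nearly as many reads as miR-423-3p (1442 against 1551). Its partner was called lower too and lay further down, at -2.65 against -1.89, so this pair does not show the lower value in the arm with fewer reads. Most of the 14 passed the minimum in 4T1 through cells alone. Of those called, this held for miR-27a-5p, miR-99b-3p and let-7d-3p, while miR-125b-1-3p and miR-423-5p passed through both libraries. How far this selection shaped the values was not tested. Of the 75 miRNAs that were the arm with more reads, 10 were called lower and 5 higher, with a median of 0.10.

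The pairs that went the other way were miR-423, miR-322 and miR-106b, the last by 0.02. In vesicles against vesicles the arm with fewer reads lay below its partner by a median of -1.87 (4T1 over 4TO7), and in cells against cells by -0.22. The medians of the EV/cell ratio of these arms, less that of their partners, were -2.42 in 4T1 and -0.54 in 4TO7. Among distinct pairs with a read of both arms in every library, the count was 10 of 13 in reads of 21 nt or more, with a median of -1.51, and 4 of 8 in reads of 18 to 20 nt, with a median of -0.42. Only 6 pairs had 10 or more reads for both arms in every library, and 5 of these showed the same direction. The share of short reads differed between the EV libraries, as given above, and its part in the result was not tested.

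**Figure D4:**
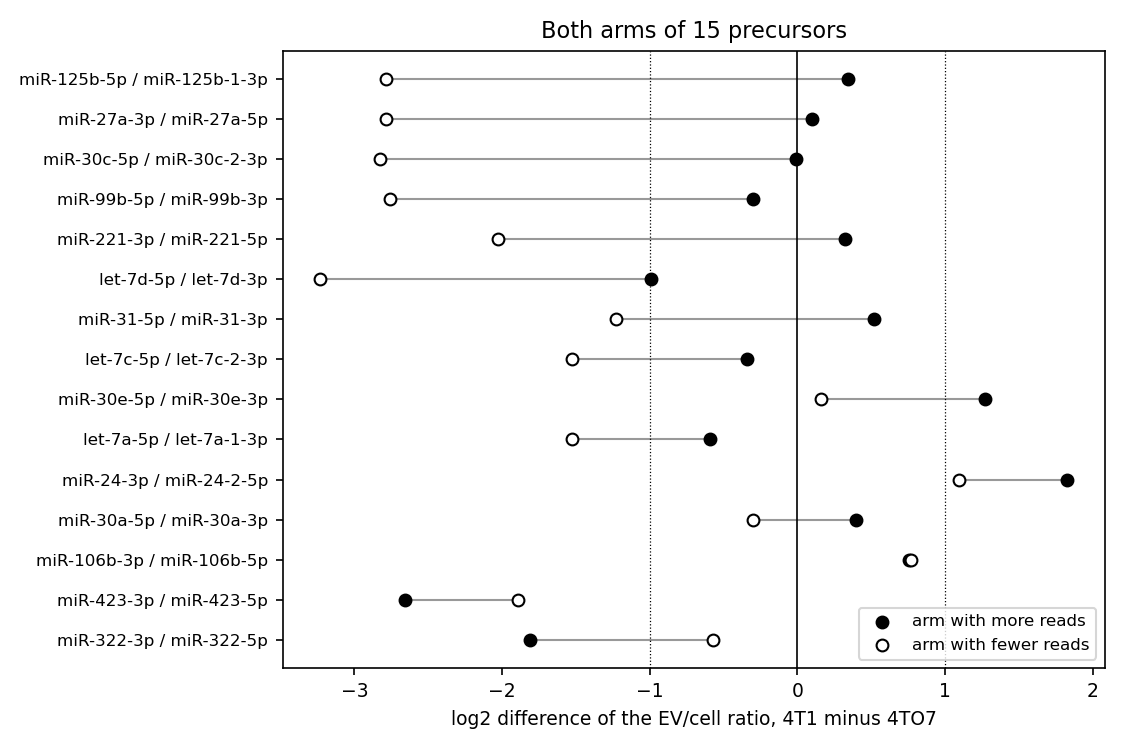
Line difference (log2, x axis) of both arms of the 15 precursors for which both were compared; filled circles are the arm with more reads over the 4 libraries and open circles the arm with fewer. The open circle lies to the left in 12 of 15 pairs, of which the let-7a and let-7c pairs share 1 open-circle arm, by the most for miR-125b-1, and to the right for miR-322 and miR-423.

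The difference was also computed in 2 disjoint sets of reads, each scaled to its own totals. All 16 miRNAs called lower kept their sign in reads of 21 nt or more, and 7 of them were still called. In reads of 18 to 20 nt, 12 of the 16 had a read in every library, all 12 kept their sign and 4 were called. The other 4, the miR-10 pair, miR-27a-5p and miR-361-3p, had 0 short reads in 1 or more libraries and give no sign. Of the 7 called higher, 4 had reads of 21 nt or more in every library, all 4 kept their sign and 3 were called. MiR-29b-3p and miR-6240 had 0 such reads in both vesicle libraries. All 7 kept their sign in the short window, and 4 were called. MiR-423-3p, at -2.71 and -2.49, miR-24-3p and miR-125a-5p, at 2.39 and 2.19, were called in both windows. MiR-181b-5p and miR-92a-3p were called in short reads alone, and let-7e-5p and miR-125b-1-3p in long ones alone.

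**Figure D5:**
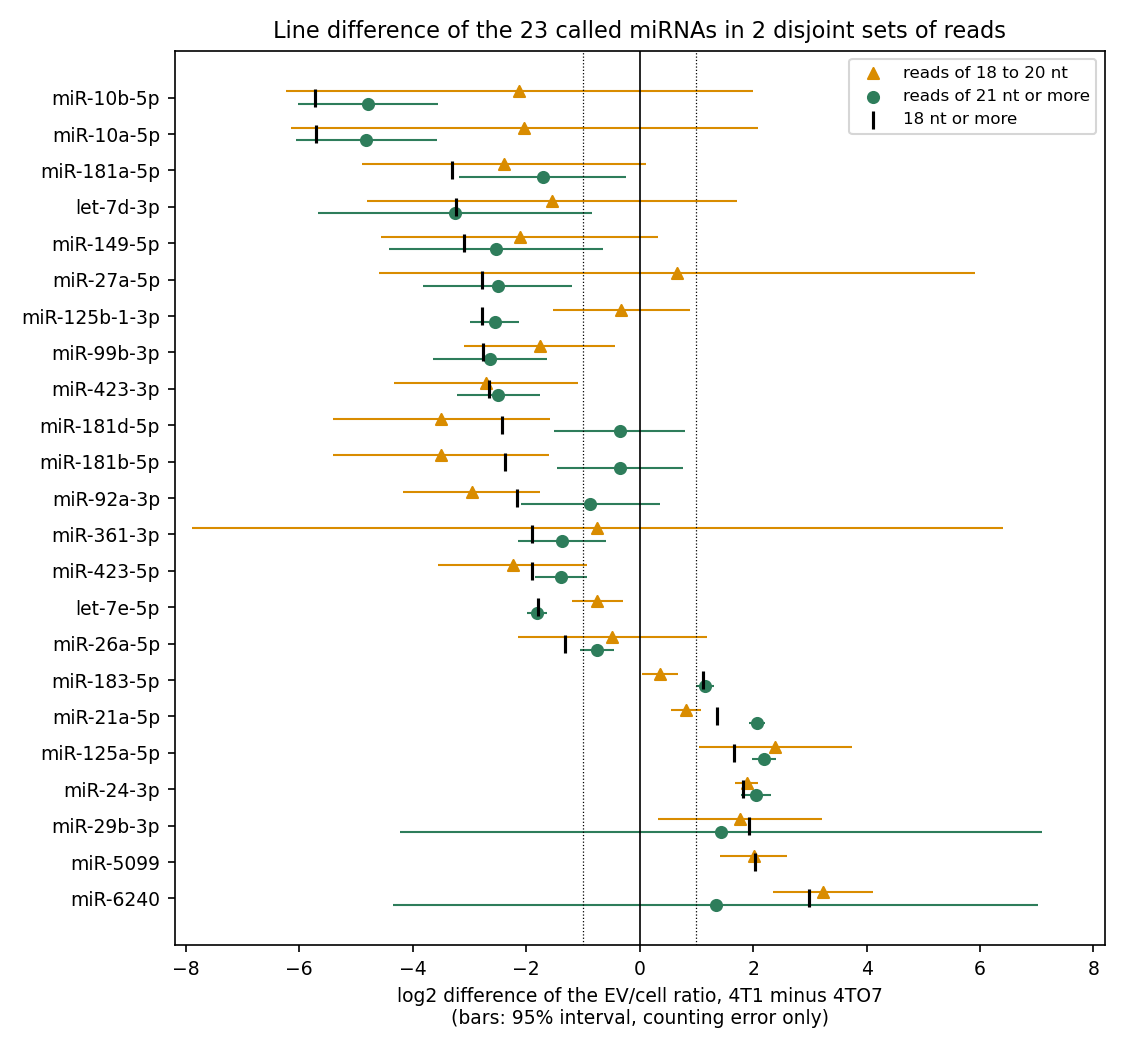
Line difference (log2, x axis) of the 23 called miRNAs in reads of 18 to 20 nt (triangles) and of 21 nt or more (circles), with 95% intervals for counting error; black ticks are the values from all reads of 18 nt or more. Symbols with very wide intervals, such as miR-361-3p and miR-27a-5p in short reads and miR-29b-3p and miR-6240 in long ones, rest on libraries with 0 reads and the 0.5 reads added, and miR-5099 has no long reads; a tick can lie outside both symbols because each set is scaled to its own totals.

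The base composition of the miRNAs was only weakly related to the difference. Across the 109 miRNAs with a sequence, Spearman's rho between the share of G and C and the line difference was -0.24 (Pearson's r -0.20), a description across miRNAs that come from the same 4 libraries and partly share reads. With 1 value per seed, rho was -0.22 over 72 seeds. The 30 miRNAs with under 40% G and C had a median difference of 0.50, with none called lower and 2 higher. The 43 with 40% to 49% had a median of -0.12, with 8 lower and 1 higher, and the 26 with 50% to 59% a median of -0.29, with 5 lower and 2 higher. The 10 with 60% or more had a median of -1.09, with 3 lower and 1 higher. Of all 109, 16 were called lower and 6 higher. For the length of the mature sequence, rho was -0.02.

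Short motifs known from studies of miRNAs in EVs were searched in the mature sequences in the sense direction. GGAG was found in 9 of the 109 (8.26%, against 14.2% of 1679 mature sequences in the RefSeq table), with a median difference of -1.63, against 0.11 without it, and 2 called lower (let-7e-5p and miR-125b-1-3p) and none higher. GGCU was found in 15 (13.8% against 13.3%), with a median of -0.49 against 0.06, 4 called lower and 1 higher. CAGUG was found in 9 (8.26% against 5.30%), with a median of 0.33 against -0.12, none called lower and 1 higher. AGAAC was found in 8 (7.34% against 1.97%), with 0.25 against -0.02, 1 called lower (miR-10b-5p) and none higher. Of the 109 with a sequence, 16 were called lower and 6 higher, and over all 129 the shares called were 12.4% lower and 5.43% higher. CGGGAG was found in none. The motifs were not exclusive: miR-125b-1-3p holds both GGAG and GGCU.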

How the data were processed

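Small RNA libraries of 4 groups, 1 library each, were compared. Per the submitters' processing notes, reads were processed with cutadapt, Bowtie and bedtools on mm9. The alignment logs deposited by the authors show up to 6 genome positions and up to 10 mature miRNA matches per read with 1 mismatch, so near-identical miRNAs share reads. The tables of miRNAs and genome clusters are the authors' raw counts, and each count is of alignments. The 4T1 EV table also has RPM of all reads, computed by the authors for 1030 lines, and was not needed. Per the labels' protocols, RNA was depleted of ribosomal RNA and size-selected on a gel.

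Sense counts (18 nt or longer) were added up by mature miRNA and scaled to their total per library; 0.5 reads were added. Line differences have 95% intervals from summed Poisson variances, and ratios within a line exact (Clopper-Pearson) intervals; both cover counting error only, as no molecular identifiers mark the reads, which may be PCR copies. Python 3.11.15, scipy 1.17.1, edgeR 4.0.16 (TMM factors) and DESeq2 1.42.0 (size factors) were used. The members and lists were chosen with earlier results of these data known. Named miRNAs are all called ones, the 10 with most reads, up to 3 per list, those nearest the minimum and opposite arms of called ones; others were named after their values were seen. Alternatives covered scaling, reads added, minimum, length, strand, depth, interval and pooling by seed. Taking equal counts once, and limiting length windows to miRNAs read in every library, were chosen after seeing the data.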

Additional observations from a re-analysis of the deposited data

Results flagged for a closer look

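In 9 called miRNAs the EV/cell ratio per miRNA read lay on opposite sides of 0 in the 2 lines, with both exact intervals clear of 0. The difference was not tested, since each group is 1 library. The ratio was below 0 in 4T1 and above 0 in 4TO7 for miR-10b-5p (difference -5.73), miR-10a-5p (-5.70), miR-125b-1-3p (-2.79), miR-423-3p (-2.65), miR-92a-3p (-2.16), let-7e-5p (-1.80) and miR-26a-5p (-1.31). It was above 0 in 4T1 and below 0 in 4TO7 for miR-24-3p (1.83) and miR-6240 (2.99). The side of 0 depends on the scaling, and per genome-aligned read it was not determined. In reads of 21 nt or more, miR-26a-5p had a slightly larger share in 4T1 EV (126 of 27081) than in 4T1 cells (2174 of 543701). MiR-92a-3p had nearly equal shares in 4TO7 EV (12 of 36417) and 4TO7 cells (54 of 167780). The miR-10 pair, miR-125b-1-3p, miR-423-3p and let-7e-5p kept their sides in such reads.

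Antisense reads of 18 nt or more, left out of every comparison but the one with both strands counted, were found in every library. They were 3.02% of such miRNA reads in 4T1 EV (exact 95% interval 2.89% to 3.16%), 1.08% in 4TO7 EV (0.998% to 1.18%), and in the cell libraries 0.692% for 4T1 (0.672% to 0.714%) and 0.764% for 4TO7 (0.724% to 0.805%). With both strands counted, all 16 lower calls were kept, and 9 miRNAs were called higher, of which 6 were among the 7; miR-183-5p, at 1.09, was not.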

How the results depend on the processing

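With 22 alternatives, 19 of the 23 called miRNAs kept their sign wherever they could be compared. The settings that changed only the minimum, the limit of a call or the handling of equal counts could not change a sign. Read length and the denominator moved the most calls. In reads of 21 nt or more 8 of the 16 called miRNAs that reached the minimum lost their call, and per genome-aligned read 3 of 23 lost it and 4 changed sign. Per genome-aligned read there were 0 higher and 66 lower, with a median of -1.91, and per read of any kind 0 higher and 64 lower, with a median of -1.84. Signs reversed per genome-aligned read for miR-183-5p (-0.77), miR-21a-5p (-0.54), miR-125a-5p (-0.24) and miR-24-3p (-0.070). They reversed per read of any kind for miR-183-5p (-0.70), miR-21a-5p (-0.46) and miR-125a-5p (-0.16), and with all listed lengths for miR-183-5p (-0.16) and miR-21a-5p (-0.21). TMM moved the median to -0.25. The counts were 41 higher and 68 lower with all listed lengths, over 778 miRNAs, and 32 higher and 42 lower when an interval past 1-fold sufficed. Lower calls numbered 8 with a minimum of 200 reads (77 miRNAs compared), 8 from 20 nt, 6 from 21 nt and 10 with seeds summed. Higher calls numbered 10 both from 20 nt and from 21 nt, so that higher outnumbered lower there. Thinning to the shallowest library left 3 higher, with a median of 0.10. The median was -0.43 with the shortest length at 16 nt, 0.22 at 20 nt, 0.29 at 21 nt, and -0.14 with seeds summed. Of the 16 lower calls, 13 remained with 5 reads added. The cause of these changes was not tested, apart from the fewer miRNAs compared. Taking miRNAs with equal counts once, chosen after seeing the data, left 7 higher and 16 lower. Depth limits miRNAs with few vesicle reads: 43 of the 129, 5 of the called among them, had under 10 reads in some library. No paired analysis was possible because each group has 1 library. No replicate could be left out for the same reason.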
